A study of Saccharomyces cerevisiae with 116 samples.

Results

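The proteasome and ubiquitin stress genes of Saccharomyces cerevisiae examined here are 36 genes, picked by their ORF identifiers. No measured value entered that rule, though earlier results of these data were known when the genes were chosen. The 36 genes comprise 14 of the 20S core, 10 of the 19S base, 9 of the 19S lid, and 3 others: RPN4 (YDL020C), UMP1 (YBR173C) and UBI4 (YLL039C). All 36 were found in each of the 3 deposited tables, which list 6705, 6708 and 6709 ORFs, and all 36 passed the filter on low counts in every fit. The study compared how strain BY4741, a common laboratory yeast, responds to salt (NaCl) or heat while it is growing and while growth or the cell cycle is held by a drug.

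Per the labels, cells were grown in rich medium (YPD) over 7 to 10 generations. A treatment of 2 h followed with nocodazole (10 ug/ml), which blocks the mitotic spindle, or with alpha factor (25 uM), the mating pheromone that arrests cells in G1. Cycloheximide, a translation inhibitor labelled 0.1 or 0.2 with no unit given, was also given for 2 h. Further cultures had 3.5 h of nocodazole, and cells labelled asynchronous had no drug. Salt libraries were taken at T30 and their unstressed controls at T0, heat libraries at T10 and T0, with T read as minutes, and drug-treated T0 libraries carry the same drug as their stressed partners. In the series with added S. pombe cells there were 3 libraries each of alpha factor T30, alpha factor T0, asynchronous T30 and asynchronous T0. Without added cells, nocodazole and alpha factor each had 3 libraries after salt, of which 2 are labelled 0.5N and 0.7N, against 2 at T0. The 3.5 h nocodazole and cycloheximide 0.1 series had 2 libraries at T30 and 2 at T0. In the heat series, nocodazole and alpha factor each had 3 libraries at T10, of which 2 are labelled 33c and 37c, against 2 at T0. The libraries with a salt dose or temperature label are all replicate 2. They were fitted in 1 group with the unlabelled replicate 1, so the spread in these groups mixes dose with replicate. Asynchronous cells without added S. pombe and cycloheximide 0.2 had 1 library per time.

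Totals ran from 1555271 to 5469230 S. cerevisiae counts per library with added S. pombe cells and from 1794997 to 7043273 without. FUS1, a cell fusion gene switched on by pheromone, lay at 368 to 863 CPM (read counts scaled to a common library size with TMM factors) in 22 alpha factor libraries, against 2.70 to 56.8 CPM in 40 other libraries. The 2 libraries labelled alpha factor and t0', a label whose meaning the sources used here do not give, stood at 18.1 and 21.4 CPM. STL1, a glycerol importer induced by osmotic stress, lay at 59.1 to 6440 CPM in 22 libraries 15 to 30 min after salt, against 0 to 3.76 CPM in 18 salt-series T0 libraries. SSA4, a heat-induced Hsp70 gene, lay at 4900 to 31685 CPM in 7 heat T10 libraries and at 42.3 to 71.8 CPM in 5 T0 libraries.

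The proteasome degrades proteins that carry chains of ubiquitin. Its 20S core is a barrel with the protease sites inside, and the 19S particle on its ends binds the chains, removes them and unfolds the protein, with ATPases in the base and a deubiquitinase in the lid. Rpn4 is the transcription factor that drives most proteasome genes and is itself a short-lived proteasome substrate, while Ump1 is a chaperone that matures the core. UBI4 encodes a row of fused ubiquitin units and is known as the stress-induced ubiquitin gene, whereas RPL40A, RPL40B and RPS31 encode ubiquitin fused to a ribosomal protein and supply it during growth.

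In unstressed asynchronous cells the levels of the 33 subunit genes, per kilobase of gene, spanned a 3.68-fold range. They ran from 126 CPM for RPN11, the lid deubiquitinase, to 465 CPM for SEM1, the smallest lid subunit, with a median of 248 CPM per kb. SEM1 had an SD of 163 CPM per kb, and the range was not compared with that of other genes. RPN4 was lower than every subunit at 79.3 ± 7.25 CPM per kb, UBI4 stood at 129 ± 7.74 and UMP1 at 155 ± 45.2 CPM per kb (SD, n = 3). UMP1 varied more between these replicates than RPN4 and UBI4 did.

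Salt in asynchronous cells raised genes of every part of the particle. By edgeR's quasi-likelihood test with Benjamini-Hochberg adjustment at 0.05, 16 of 36 genes rose and none fell, or 44.4%, against 22.2% of all 5744 genes higher and 19.6% lower (41.8% in either direction). The rises comprised 6 of 14 core genes, 4 of 10 base genes, 4 of 9 lid genes, and RPN4 and UBI4. The estimate was positive for 35 of 36 genes, all but SEM1 (-0.27 ± 0.39, log2 change ± SE). The log2 changes of the 33 subunits had a median of 0.47, against 0.05 over all genes, and their interquartile range of 0.32 was narrower than that of all genes at 1.14. Their summed level was 12627 ± 1053 CPM at T30 and 8863 ± 550 CPM at T0 (SD, n = 3 each), and every T30 library lay above every T0 library.

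PRE4, a core beta subunit, had 447, 381 and 449 CPM in the T30 libraries, against 254, 196 and 194 CPM at T0. RPT3, a base ATPase, had 488, 562 and 608 CPM at T30 and 274, 317 and 296 CPM at T0. RPN9, a structural lid subunit, had 378, 299 and 285 CPM at T30 and 224, 158 and 147 CPM at T0. The T30 and T0 libraries did not overlap for any of these genes, and RPN9 changed by 0.86 ± 0.21 (edgeR adjusted p = 0.00477). Among the other subunits that rose were the ATPase RPT5 (0.73 ± 0.15), the base scaffold RPN2 (0.67 ± 0.15), the lid subunit RPN3 (0.76 ± 0.15), and PRE2 (0.61 ± 0.16) and PUP1 (0.55 ± 0.20), which encode protease-bearing beta subunits of the core. PRE9 (0.06 ± 0.14), PRE1 (0.06 ± 0.15) and PUP2 (0.07 ± 0.21), all core subunits, had the smallest estimates of the core. PUP1, RPN4 and RPN5 (0.79 ± 0.30) were close to the threshold, and their calls were lost in several of the alternatives tried.

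RPN4 itself had 197, 141 and 193 CPM at T30, against 140, 122 and 118 CPM at T0. Its T30 libraries all lay above its T0 libraries, and the change was 0.48 ± 0.18 (edgeR adjusted p = 0.0437). UMP1 had 68.8, 116 and 145 CPM at T30 and 47.4, 87.4 and 72.5 CPM at T0. These overlapped, and the change of 0.66 ± 0.39 was not called (edgeR adjusted p = 0.195). Replicates with the same number deviated together in this series, and with the replicate number as a block UMP1 was called (edgeR adjusted p = 0.003), as were 28 of 36 genes, or 77.8%, against 59.5% of all genes in that fit. With library sizes taken from S. pombe totals the median of all genes moved to 0.60 and that of the 36 genes to 1.02, and 11 genes were called higher, 10 of them among the 16, against 24.9% of all genes called in that fit.

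**Figure D1:**
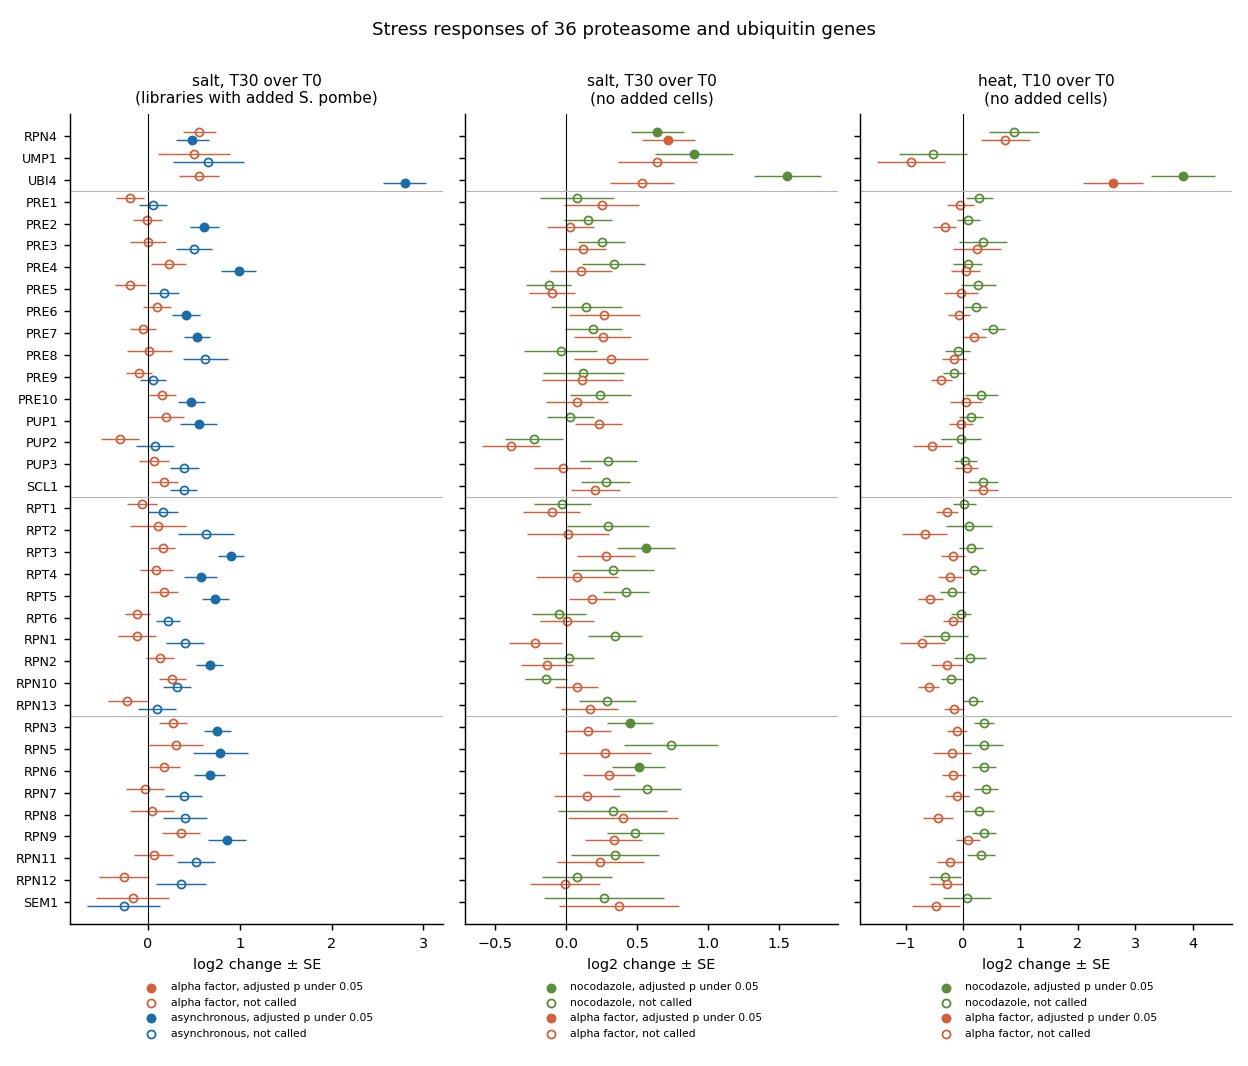
Log2 change ± SE (horizontal axis) of the 36 genes, grouped from top to bottom as regulators and ubiquitin, 20S core, 19S base and 19S lid, for salt with added S. pombe cells (left), salt without added cells (middle) and heat (right), with filled points where the edgeR adjusted p was under 0.05. In asynchronous cells (blue) 35 of 36 points lie right of 0 and 16 are filled, while no point is filled for alpha factor cells (orange) of the left panel, and UBI4 is the farthest point right in every drug state with heat.

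UBI4 changed most of the 36 genes. It had 1091, 840 and 1138 CPM in asynchronous T30 libraries, against 150, 154 and 137 CPM at T0, a change of 2.79 ± 0.24 (edgeR adjusted p = 2.72e-06). It is also the sole gene of the 36 that the authors' deposited table places in its cluster of induced stress genes (iESR). The 3 fusion genes moved the other way: their summed level was 989 ± 162 CPM at T30 and 3267 ± 418 CPM at T0, and RPS31 (-1.79), RPL40A (-1.64) and RPL40B (-1.52) fell. UBI4 therefore held 51.5%, 42.7% and 58.4% of the reads of these ubiquitin genes at T30, against 3.94%, 4.46% and 4.63% at T0. The groups did not overlap, and the two-sided exact permutation p of 0.1 is the smallest that 3 against 3 libraries can give. UBI4's repeats are near-identical to the ubiquitin part of the fusion genes, and RPL40A and RPL40B are near-identical copies, so how reads were split between these genes is uncertain. Under S. pombe library sizes the fusion genes stayed negative in asynchronous cells, with 1 of 3 called.

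In alpha factor cells salt gave no called change in these 36 genes (edgeR), against 9.09% of all genes. Unadjusted p was under 0.05 for 2 of 36, DESeq2 called 1, against 12.4% of all genes, and the fit with the replicate block called 4 of 36, or 11.1%, against 30% of all genes. The subunits' summed level was 9486 ± 795 CPM at T30 and 9173 ± 299 CPM at T0 (SD, n = 3 each), with overlap, and their median log2 change was 0.06. With S. pombe library sizes the median was 0.57 over the subunits and 0.51 over all genes, and no gene of the 36 was called. The member with the smallest p in each part was PUP2 in the core (-0.30 ± 0.21), the ubiquitin receptor RPN10 in the base (0.27 ± 0.15) and RPN3 in the lid (0.27 ± 0.15).

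The 3 genes outside the particle had the largest estimates. RPN4 had 289, 223 and 251 CPM in alpha factor T30 libraries and 197, 158 and 162 CPM at T0, without overlap. Its change was 0.56 ± 0.18 (edgeR adjusted p = 0.0675, and 0.00251 with the block). UBI4 had 785, 481 and 825 CPM at T30 and 557, 378 and 487 CPM at T0, with overlap, a change of 0.56 ± 0.22 (edgeR adjusted p = 0.144, and 0.0163 with the block). UMP1 changed by 0.50 ± 0.39 (edgeR adjusted p = 0.486, and 0.0351 with the block). These libraries compare bulk RNA, in which fewer cells expressing a gene and less RNA of it per cell cannot be told apart.

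Before salt, alpha factor cells already differed from asynchronous cells in UBI4 (1.68 ± 0.23, edgeR adjusted p = 0.000298), and in no other of the 36 genes, against 12.8% of all genes called. Unadjusted p was under 0.05 for 2 of 36, and DESeq2 called 1, against 15.1% of all genes. UMP1 differed by -0.16 ± 0.39. With the block RPN4 was called as well (0.44, edgeR adjusted p = 0.0111), against 29.9% of all genes in that fit. The subunits' summed level of 9173 CPM in alpha factor T0 libraries stood beside 8863 CPM in asynchronous T0 libraries. With S. pombe library sizes the median difference was -0.20 over the subunits and -0.25 over all genes. UBI4's share of ubiquitin gene reads was 20.8%, 12.1% and 18.1% in alpha factor cells, against 3.94%, 4.46% and 4.63% in asynchronous cells. After salt the alpha factor share was 32.7%, 20.3% and 31.1%, which overlapped that before salt (two-sided exact permutation p = 0.2). Within each replicate number the share was higher after salt than before. Same-numbered libraries deviated together in this series, and the permutation took no account of that.

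**Figure D2:**
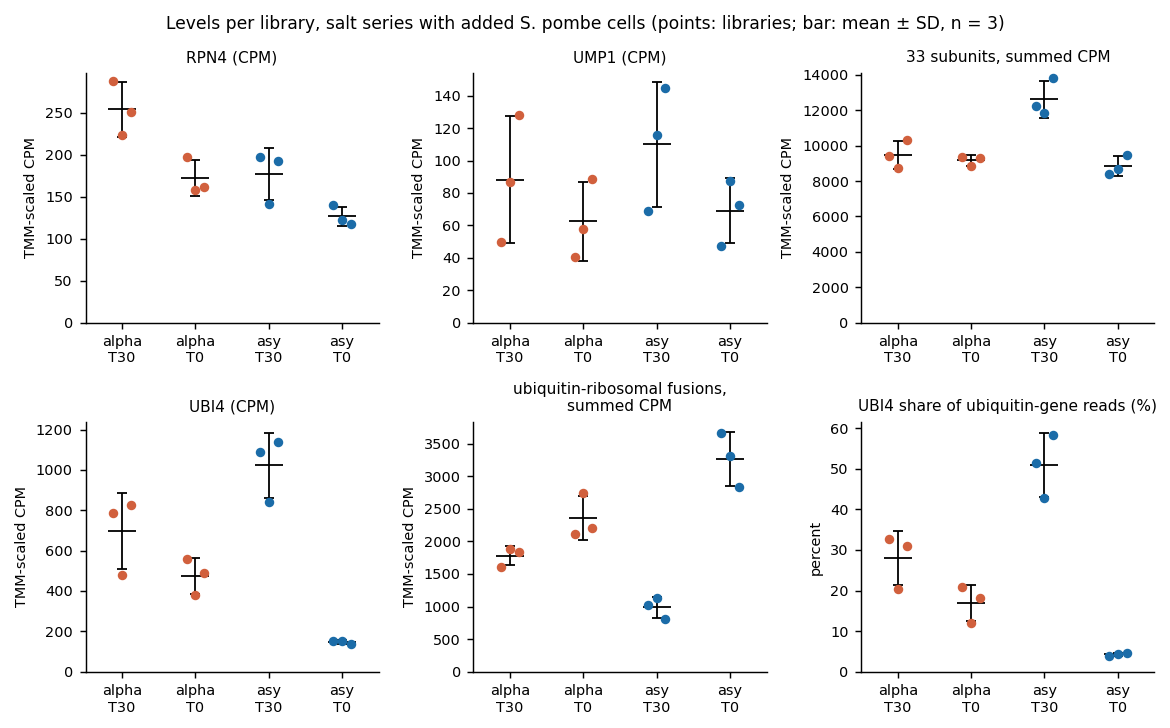
TMM-scaled CPM per library (vertical axes; the last panel gives percent) for alpha factor and asynchronous cells at T30 and T0 in the salt series with added S. pombe cells, with the mean ± SD of 3 libraries as bars. The subunits' sum at T30 stands above T0 in asynchronous cells and overlaps it in alpha factor cells, while UBI4 in asynchronous cells starts from the lowest level and ends at the highest.

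The salt response itself differed between alpha factor and asynchronous cells for 2 of 36 genes by the interaction term, both lower in alpha factor: UBI4 (-2.24 ± 0.32, edgeR adjusted p = 0.00218) and RPT3 (-0.74 ± 0.20, edgeR adjusted p = 0.0358). Among all genes 8.79% were called in either direction and 5.07% lower. The estimate was negative for 34 of 36 genes, with a median of -0.47 over the 33 subunits and -0.02 over all genes. With the replicate block 14 of 36 were called, all lower, or 38.9%, against 31.3% of all genes in that fit. RPT3 lost its call in 12 of 19 alternatives, whereas UBI4 kept its call in all 19, and with S. pombe library sizes only UBI4 was called, against 1.18% of all genes. The 2 positive estimates were those of SEM1 (0.10) and RPN4 (0.08 ± 0.25). RPN4's was smaller than its SE and changed sign in some alternatives. Its salt change was 0.56 in alpha factor cells and 0.48 in asynchronous cells. UMP1's interaction was -0.16 ± 0.55. The T0 libraries of alpha factor cells serve both this comparison and the one before salt.

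The other genes of the pathway, in 10 lists of 51 genes, were read beside these. With salt in asynchronous cells 21 of the 51 rose and 4 fell, or 41.2% and 7.84%. Among all genes 22.2% rose and 19.6% fell. The single lists are small, so their counts are given as description. The widest change with salt in asynchronous cells was in TMA17, a stress-induced assembly chaperone of the 19S base, which had 335, 211 and 356 CPM at T30 and 34.0, 37.2 and 38.7 CPM at T0 (3.03). Of the 19S assembly chaperones 3 of 5 rose (NAS2 1.34), and of the core chaperones 2 of 4 (PBA1 0.79, ADD66 0.46). All 4 proteasome-bound factors rose, among them the proteasome tether ECM29 (1.23) and the ubiquitin ligase HUL5 (1.20). Of 4 transcription factors known to act on the RPN4 promoter 3 rose, with YAP1 at 0.81 and PDR1 at 0.77. The 3 genes known to mark Rpn4 for turnover read 0.29 (MUB1), 0.04 (RAD6) and 0.31 (UBR2), and did not pass the test.

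Of 7 genes for shuttles and the Cdc48 segregase 4 rose, led by DDI1 (1.38) and UFD1 (1.16). Of 8 conjugating and activating enzymes 1 rose, the stress-linked conjugating enzyme UBC5 (1.87), and of 8 ligases 3 rose, led by HRD1 (1.05) and UFD2 (0.90). In ubiquitin recycling DOA4, a deubiquitinase, rose (1.24) and RFU1, an inhibitor of Doa4, fell (-1.27). In alpha factor cells TMA17 was the sole one of the 51 genes called with salt (1.11, edgeR adjusted p = 0.0124), against 9.09% of all genes. The interaction was called for TMA17 (-1.93 ± 0.34) and DDI1 (-1.38 ± 0.25) among others, and for RPS31 (1.36 ± 0.23) in the other direction.

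In nocodazole-arrested cells, in the libraries without added S. pombe, salt raised RPN4, UMP1, UBI4 and 3 subunits. The 6 of 36 called were all higher, or 16.7%, against 14.8% of all 5836 genes higher and 16.8% lower (31.6% in either direction). The share that rose was thus near the background. RPN4 had 231, 245 (0.5N) and 248 (0.7N) CPM at T30, against 165 and 143 CPM at T0 (0.64 ± 0.19, edgeR adjusted p = 0.0141). UMP1 had 53.2, 77.1 and 85.8 CPM at T30, against 39.8 and 37.1 CPM at T0 (0.90 ± 0.27, edgeR adjusted p = 0.0193). UBI4 had 762, 1115 and 925 CPM at T30, against 318 and 313 CPM at T0 (1.56 ± 0.24, edgeR adjusted p = 0.000156). The T30 and T0 libraries did not overlap for any of these genes. RPT3 (0.56 ± 0.21), RPN6 (0.51 ± 0.18) and RPN3 (0.45 ± 0.16) were the called subunits. Leaving out 1 library at a time left 1 to 5 genes called, a range not set against all genes. The subunits' sum was 11152 ± 386 CPM over 3 libraries at T30, whose dose labels differ, and 9235 ± 276 CPM over 2 at T0.

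The alpha factor libraries of the same series had 1 of 36 called, RPN4, against 5.86% of all genes. It had 286, 255 (0.5N) and 298 (0.7N) CPM at T30 and 179 and 157 CPM at T0 (0.72 ± 0.19, edgeR adjusted p = 0.0315), and the call was lost when either T0 library, T30 replicate 1 or the 0.7N library was left out, with adjusted p of 0.0887 to 0.261. UBI4 changed by 0.53 ± 0.23 (edgeR adjusted p = 0.188) and UMP1 by 0.64 ± 0.28 (edgeR adjusted p = 0.196). The difference between nocodazole and alpha factor was not called for any of the 36 (edgeR), against 2.36% of all genes. It was -0.08 ± 0.26 for RPN4 and 0.26 ± 0.38 for UMP1. For UBI4 it was 1.02 ± 0.32 (edgeR adjusted p = 0.103), with unadjusted p under 0.05 for 1 of 36, and DESeq2 called 1, UBI4, against 5.4% of all genes. Before salt, nocodazole and alpha factor cells differed in none of the 36 (edgeR), against 8.84% of all genes, with unadjusted p under 0.05 for 2 and 1 called by DESeq2, against 10.5% of all genes. UBI4 stood at 318 and 313 CPM in nocodazole T0 libraries and at 580 and 480 CPM in alpha factor T0 libraries, without overlap (-0.73 ± 0.25, edgeR adjusted p = 0.0822), while RPN4 (-0.11 ± 0.20) and UMP1 (0.08 ± 0.30) had small estimates. Both the difference in response and the one before salt use these T0 libraries.

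After 3.5 h of nocodazole salt raised UBI4 and lowered 3 subunits. The 4 of 36 genes called were 11.1%, against 28.8% of all genes (14.1% higher, 14.7% lower): UBI4 rose (0.68 ± 0.25), while the core genes PRE5 (-0.57 ± 0.17) and PUP2 (-0.65 ± 0.23) and the receptor RPN10 (-0.60 ± 0.16) fell. RPN10 had 107 and 107 CPM at T30 and 164 and 161 CPM at T0. RPN4 had 169 and 256 CPM at T30 and 195 and 187 CPM at T0, so that its T30 libraries lay on both sides of T0 (0.17 ± 0.20, edgeR adjusted p = 0.578). The median over the 33 subunits was -0.19, with 9 of 33 positive. T30 replicate 1 stood apart from the other 3 libraries, with a TMM factor of 0.81 against 1.01 to 1.04, and a subunit sum of 8000 CPM against 9481 CPM in T30 replicate 2 and 9382 and 9371 CPM at T0. Without it 1 of 36 was called, against 17.8% of all genes. Without T30 replicate 2 there were 11, of which 9 were lower, against 33.9% of all genes, which is no larger a share than the background. Without T0 replicate 1 or T0 replicate 2 there were 0, against 14.9% and 16.9% of all genes. With the replicate block 7 were called, against 36.4% of all genes, with UMP1 among those higher (0.79, edgeR adjusted p = 0.0363, and 0.0524 without the block).

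In cycloheximide 0.1 salt raised UBI4 and RPN4. These were 2 of 36 genes, or 5.6%, against 33.7% of all genes in either direction and 16.3% higher. UBI4 had 837 and 978 CPM at T30 and 149 and 174 CPM at T0 (2.42 ± 0.26), and RPN4 had 298 and 284 CPM at T30 and 145 and 143 CPM at T0 (0.95 ± 0.20, edgeR adjusted p = 0.00195). UMP1 had 81.2 and 107 CPM at T30 and 53.9 and 97.8 CPM at T0, with overlap (0.24 ± 0.28). None of the 33 subunits was called (edgeR), though 30 were positive with a median of 0.19. Unadjusted p was under 0.05 for 5 of the 36, and DESeq2 called 5, against 35.5% of all genes. With the replicate block PUP1 was called too (0.45, edgeR adjusted p = 0.0413), against 41.7% of all genes in that fit. Without T30 replicate 1, 7 of the 36 were called, a smaller share than the 30.8% of all genes in that fit. In single libraries with added S. pombe cells RPN4 stood at 339 CPM at T30 and 133 CPM at T0 in cycloheximide 0.1, and at 321 CPM at T30 and 149 CPM at T0 in cycloheximide 0.2.

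The other pathway genes in these series again had TMA17 as the widest rise. It changed by 2.85 with salt in nocodazole cells, by 2.19 after 3.5 h of nocodazole and by 3.23 in cycloheximide 0.1. Of the 51 genes 9 rose and 5 fell in nocodazole cells, or 17.6% and 9.8%, against 14.8% and 16.8% of all genes. After 3.5 h of nocodazole 9 rose and 3 fell, or 17.6% and 5.88%, against 14.1% and 14.7%. In cycloheximide 0.1, 12 rose and 3 fell, or 23.5% and 5.88%, against 16.3% and 17.4%. The shares that rose in nocodazole were thus near the background. NAS2, a base assembly chaperone (1.11, 0.88 and 1.51 in that order), UBC5 (1.04 to 1.58), the membrane-bound ligase HRD1 (0.72, 0.88 and 0.87) and DOA4 (0.87, 0.82 and 1.52) rose in each, while the shuttle factor DSK2 (-0.70, -1.11 and -1.99) and the fusion gene RPS31 (-1.32, -1.62 and -1.01) fell in each. Before salt, alpha factor cells had more TMA17 (1.20) and UBC5 (1.12) than asynchronous cells.

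With heat, UBI4 was the sole gene of the 36 called in nocodazole or in alpha factor cells (edgeR). In nocodazole cells UBI4 had 1528, 1181 (33c) and 2964 (37c) CPM at T10, against 106 and 160 CPM at T0 (3.83 ± 0.56, edgeR adjusted p = 0.000586). In alpha factor cells it had 2481, 1271 (33c) and 2989 (37c) CPM at T10, against 286 and 454 CPM at T0 (2.62 ± 0.52, edgeR adjusted p = 0.00942). The T10 and T0 libraries did not overlap in either state, and the library labelled 33c was the lowest T10 library in both. The call in alpha factor cells was lost without T0 replicate 1 (edgeR adjusted p = 0.0933). This was 1 of 36 genes in each state, against 33.1% of all 5689 genes in nocodazole and 15.3% in alpha factor. Unadjusted p was under 0.05 for 2 genes in nocodazole and 3 in alpha factor. DESeq2 called 2 in each, against 36.5% of all genes in nocodazole and 20.3% in alpha factor. In the single asynchronous libraries UBI4 stood at 2932 CPM at T10 and 103 CPM at T0.

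RPN4 had 537, 209 (33c) and 415 (37c) CPM at T10 and 255 and 165 CPM at T0 in nocodazole cells (0.89 ± 0.43, edgeR adjusted p = 0.147). In alpha factor cells it had 455, 257 (33c) and 524 (37c) CPM at T10 and 308 and 195 CPM at T0 (0.74 ± 0.43, edgeR adjusted p = 0.288). The 33c libraries overlapped T0 in both states. Without the 33c libraries RPN4 was called in nocodazole cells (1.19, edgeR adjusted p = 0.0225). In asynchronous cells it stood at 442 CPM at T10 and 157 CPM at T0. UMP1 was at 97.3, 46.6 and 31.1 CPM at T10 and 133 and 35 CPM at T0 in nocodazole cells, with overlap (-0.52 ± 0.60, and 0.75 without T0 replicate 1). In alpha factor cells it changed by -0.91 ± 0.59 (edgeR adjusted p = 0.342).

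No subunit passed the test with heat in either state. The estimates were positive for 25 of 33 in nocodazole cells, with a median of 0.14, and negative for 26 of 33 in alpha factor cells, with a median of -0.17. Over all genes the medians were 0.03 and -0.01. The 10 base genes were all negative in alpha factor cells. In the single asynchronous libraries the subunits' sum was 12342 CPM at T10 and 9857 CPM at T0, beside 11108 CPM at T30 and 8890 CPM at T0 in the single asynchronous salt pair without added cells. The member with the smallest p in each part was PRE7 in the core (0.53 ± 0.21), RPN10 in the base (-0.20 ± 0.19) and RPN3 in the lid (0.36 ± 0.18) in nocodazole cells, and PRE9 (-0.38 ± 0.19), RPN10 (-0.60 ± 0.19) and RPN8, the partner of the lid deubiquitinase (-0.44 ± 0.27), in alpha factor cells. The difference in heat response between nocodazole and alpha factor was positive for 31 of 33 subunits, and none was called by edgeR or DESeq2, nor was any unadjusted p under 0.05 (0 of 36), against 1.37% of all genes called. For UBI4 it was 1.22 ± 0.67, for RPN4 0.15 ± 0.60 and for UMP1 0.39 ± 0.85. Alpha factor T0 replicate 1 stood apart in the subunits' sum, at 15438 CPM against 11703 CPM in T0 replicate 2 and 10774 to 11233 CPM at T10. The excess lay in the 19S genes: its base summed to 8139 CPM and its lid to 3490 CPM, against 5388 and 2301 CPM in T0 replicate 2. Its core sum was 3808.5 CPM, against 4013.6 CPM in T0 replicate 2. Base sums were also high in nocodazole replicate 1, at 6117 CPM at T0 and 6210 CPM at T10. In nocodazole replicate 2 they were 4478 CPM at T0, and 4304 (33c) and 4625 (37c) CPM at T10. UMP1 was also high in the replicate 1 T0 libraries, at 133 CPM in both states, against 31.1 to 56.8 CPM in all other T0 and T10 heat libraries but nocodazole T10 replicate 1 (97.3 CPM).

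**Figure D3:**
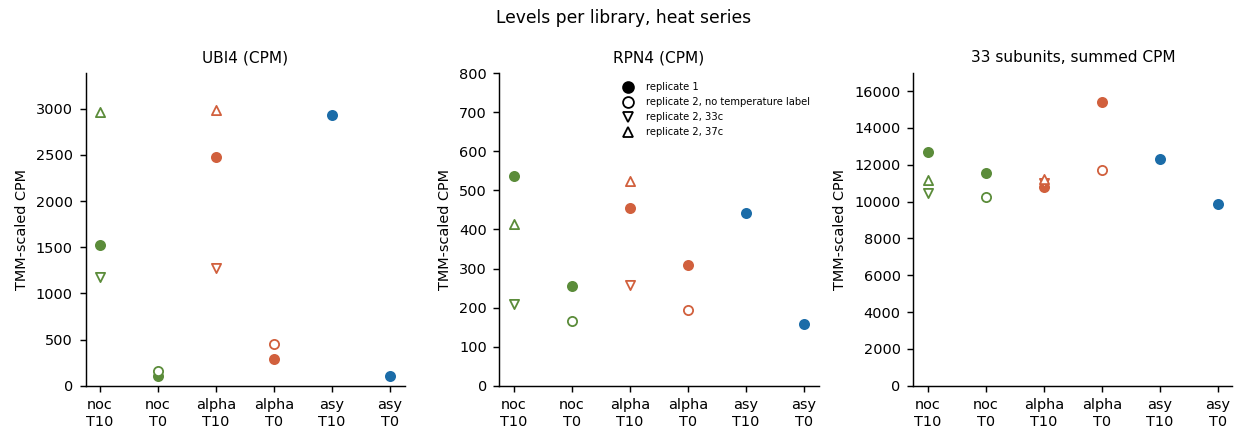
TMM-scaled CPM per library (vertical axes) of UBI4, RPN4 and the summed 33 subunits in nocodazole, alpha factor and asynchronous cells at T10 and T0 of the heat series, with filled circles for replicate 1, open circles for replicate 2 and triangles for the replicate 2 libraries labelled 33c and 37c. UBI4 at T10 lies above T0 in every state, and the alpha factor T0 replicate 1 library has the highest subunit sum at 15438 CPM.

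UBI4's share of ubiquitin gene reads after heat was 76.6%, 40.2% (33c) and 67.2% (37c) at T10 against 5.59% and 3.66% at T0 in nocodazole cells, and 76.1%, 46.6% (33c) and 73.6% (37c) at T10 against 21.2% and 16.8% at T0 in alpha factor cells. Single asynchronous libraries gave 72.1% at T10 and 2.78% at T0. The order of T0 shares, alpha factor above asynchronous, was that of the salt series. Of the 51 other pathway genes 10 rose and 2 fell with heat in nocodazole cells, or 19.6% and 3.92%, against 16.3% and 16.8% of all genes. TMA17 (2.64), the base chaperone RPN14 (1.16), the conjugating enzymes UBC4 (1.25) and UBC7 (1.01), and DOA4 (1.51) were among the first, and RFU1 (-1.96) and the ligase SSM4 (-0.88) were the ones that fell. In alpha factor cells TMA17 was the sole one called of these lists (1.28), against 15.3% of all genes.

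The time courses, with 1 library per time and so no test, show when RPN4 and UBI4 were high. After salt RPN4 in nocodazole cells read 130, 165, 356, 231, 251 and 205 CPM at t0', T0, T15, T30, T45 and T60, and in alpha factor cells 124, 179, 320, 286, 249 and 242 CPM. The highest value was at T15 in both. UBI4 read 128, 318, 627, 762, 662 and 775 CPM in nocodazole cells and 135, 580, 834, 907, 551 and 423 CPM in alpha factor cells, so that it was highest at T60 and at T30. UBI4 was lower at t0' than at T0 in all 4 courses.

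After heat RPN4 read 161, 255, 537, 251, 201 and 165 CPM at t0', T0, T10, T20, T30 and T40 in nocodazole cells, and 229, 308, 455, 285, 200 and 179 CPM in alpha factor cells. It was highest at T10 and, by T20, below its T0 value in both states. UBI4 read 93.8, 106, 1528, 2590, 1949 and 1371 CPM in nocodazole cells and 59.6, 286, 2481, 2036, 1676 and 1092 CPM in alpha factor cells. It was still above T0 at T40 in both, and its share of ubiquitin gene reads was highest of all libraries in nocodazole cells at T20 (83.4%). The summed subunits were at 10005 CPM at t0' and 11192 CPM at T40 in nocodazole cells, and at 11104 CPM at t0' and 10599 CPM at T40 in alpha factor cells.

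**Figure D4:**
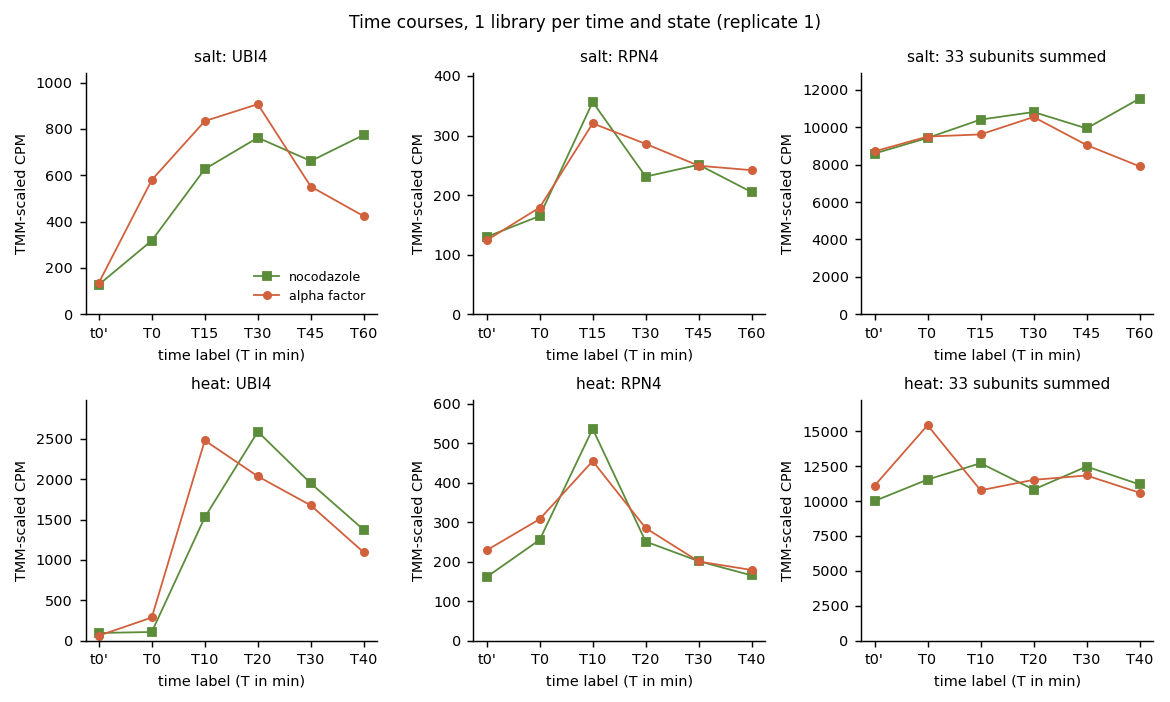
TMM-scaled CPM (vertical axes) of UBI4, RPN4 and the summed 33 subunits against the time label in nocodazole (squares) and alpha factor (circles) cells after salt (top) and heat (bottom), 1 library per point. RPN4 is highest at T15 after salt and at T10 after heat in both states, and the subunit sum stays between 7909 and 15438 CPM.

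Polysome gradients of asynchronous cells, 2 at T30 and 2 at T0, gave the share of each mRNA over 9 fractions, from free RNA-protein particles (RNP) through 40S, 60S and 80S to fractions named for 2 or more ribosomes. Counts were scaled by the S. pombe RNA added, taken as equal in each fraction. Members differed widely in their position. RPN4 had 51.1% and 70.2% of its mRNA in the RNP fraction at T30 and 60.5% and 60.7% at T0, while the median over the core genes was 21.2% and 40.3% at T30 and 28.9% and 28.2% at T0. Over all tested genes the median RNP share was 31.6% and 43.5% at T30 and 40.8% and 38.0% at T0. UBI4 had 60.5% and 44.2% in polysomal fractions at T30 and 49.8% and 35.7% at T0, and RPN4 had 23.7% and 13.4% at T30 and 15.7% and 11.7% at T0. SEM1, the shortest of the 36 genes at 270 bp, had 80.1% and 84.6% in the RNP fraction at T30 and 63.4% and 73.6% at T0. Its counts per fraction were low, with a median of 59 and a minimum of 2 over the fractions of all gradients.

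The ratio of polysomal to lighter fractions changed in none of the 36 genes (limma, 0 with unadjusted p under 0.05, against 656 of all 5053 genes), where 2.45% of all genes were called. It was positive for 32 of 36, with a median of 0.31, beside 0.36 over all genes. RPN4 changed by 0.48 ± 0.49 (log2 ratio, T30 minus T0, ± SE), UBI4 by 0.57 ± 0.49 and UMP1 by 0.23 ± 0.49. The SE was the same for every gene, since the fit moderated all variances to a common value. It is therefore not the spread of any single gene. The 2 gradients of each time differed by more than the times did: the median log2 ratio of the 33 subunits was 0.24 and -1.14 at T30 and -0.38 and -1.0 at T0. Without T30 gradient 2, 7 of 36 genes were called higher, among them RPN11 (1.75), RPT5 (1.37) and PRE7 (1.33), against 15.8% of all genes; without T30 gradient 1, RPN11 was at -0.34 and none was called. Of the other pathway genes TMA17 was called higher (2.42 ± 0.49, limma adjusted p = 0.000134) under that common SE. Its own gradients differed widely, at 0.91 and -1.48 at T30, against -2.46 and -2.95 at T0. The call was lost without T30 gradient 1 (1.23), without T0 gradient 2 (2.18) or with no minimum on the inputs (limma adjusted p = 0.0592).

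**Figure D5:**
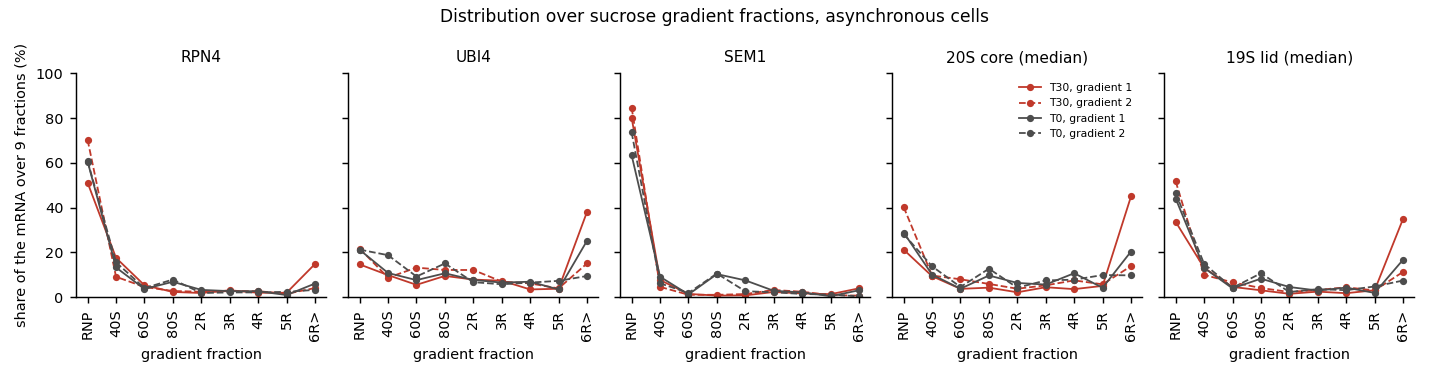
Share of each mRNA (vertical axis, percent of the sum over 9 fractions) by gradient fraction for RPN4, UBI4, SEM1 and the medians of the 20S core and 19S lid genes, with T30 in red and T0 in grey and the second gradient dashed. RPN4 and SEM1 are mostly in the RNP fraction at both times, and at T30 the core median in that fraction is 21.2% in one gradient and 40.3% in the other.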

How the data were processed

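RNA was sequenced from 116 libraries. Per the submitters' processing notes reads were handled with Trimmomatic 0.32, Bowtie2 and HTSeq 0.6.1. The sources used here do not give Bowtie2's version, the genome build, the annotation or whether counting used strand. The authors deposited whole-number read counts per ORF in 3 tables, each with S. pombe counts where S. pombe was added. Another 70 columns of per-sample values matched no sample here and were not used. ORF identifiers were paired with symbols from RefSeq. A few rows outside the ORFs were left out (at most 0.00545% of a library).

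CPM are counts over TMM-scaled library sizes. Each series was fitted once, over its groups, with edgeR 4.0.16 (quasi-likelihood test, filterByExpr, Benjamini-Hochberg, 0.05) in R 4.3.3. Polysome ratios, log2 of 5 polysomal over 4 lighter fractions scaled by S. pombe totals with an offset of 1 read, were fitted with limma 3.58.1 over genes of at least 10 CPM in the inputs. DESeq2 1.42.0, other size factors, no filter, the replicate block, S. pombe library sizes and leaving out libraries were the alternatives. The scripts were tested on simulated data. Whether replicates were separate cultures is not stated per library, though the series text speaks of biological replicates, so p-values measure the spread between these libraries. In groups that pooled dose or temperature labels, that spread includes dose. For the polysome ratio that spread was pooled over genes. Closest replicate pairs differed by more than counting noise (52 pairs, chi-square per degree of freedom at least 1.93).

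Same-numbered libraries deviated together in the series with added S. pombe (correlation of deviations 0.31 to 0.71 over 18 pairs) and in the cycloheximide and 3.5 h nocodazole series (0.20 to 0.65 over 12 pairs). Deviations were taken from group means. The latter series had 2 libraries per group, whose deviations mirror each other. Each correlation there is therefore counted for both replicate numbers, and values for different numbers are the same with the sign reversed. In the other salt (-0.44 to 0.54) and heat (-0.51 to 0.80) libraries only some pairs did. In groups with 1 library left out, a lone library is taken to vary like the others.

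The 36 genes, the lists of other genes and the tests were chosen with earlier results of these data known. The rule for naming genes took RPN4, UMP1 and UBI4 in each comparison, the 3 called members with the largest change in each part of the particle (or the one with the smallest p), and up to 2 called genes of each other list. Subunits without a call and genes of the other lists are not printed for every comparison. Any further gene named was picked after its values were seen.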

Additional observations from a re-analysis of the deposited data

Results flagged for a closer look

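The salt response in alpha factor cells differed from that in asynchronous cells, by the edgeR interaction term (log2 change, alpha factor minus asynchronous), for these named genes. It was lower in alpha factor cells for the ubiquitin gene UBI4 (-2.24), the base chaperone TMA17 (-1.93), the shuttle factor DDI1 (-1.38), the conjugating enzyme UBC5 (-1.34), the Cdc48 cofactor UFD1 (-1.12), the core chaperone PBA1 (-0.77) and the base ATPase RPT3 (-0.74). It was higher for the ubiquitin-ribosomal fusion genes RPS31 (1.36) and RPL40B (1.22). With S. pombe library sizes UBI4 alone of these kept its call. TMA17 was also the 1 named gene for which the nocodazole response to salt exceeded that in alpha factor cells (1.97, edgeR adjusted p = 0.0488), a call lost in 10 of 17 alternatives.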

How the results depend on the processing

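Across 180 alternative counts of called genes, 130 stayed within 1.5 times the reported one, and of 2108 alternatives for single named genes 1774 kept direction and side of the threshold, 262 lost the call, 37 gained it and 35, over 19 results, changed sign. None of those 35 was called in either fit. With the replicate block 28 genes were called for salt in asynchronous cells, against 59.5% of all genes. For salt in alpha factor cells it was 4, against 30%, and for the difference between them 14, against 31.3%. Alpha factor before salt gave 2, against 29.9%, and salt after 3.5 h of nocodazole gave 7, against 36.4%. Heat gave 2 each in alpha factor and in nocodazole cells. With S. pombe library sizes 1 was called for the difference between alpha factor and asynchronous cells in salt response, against 1.18% of all genes. With these and the block together 31, 4 and 1 were called for salt in asynchronous cells, in alpha factor cells and for the difference. The shares of all genes in that fit were 51.1%, 17.9% and 9.26%. Counts in this section without such a share were not set against all genes here, and show only how calls moved between fits. DESeq2 called 1 for salt in alpha factor cells, against 12.4% of all genes, and 5 in cycloheximide 0.1, against 35.5%. It called 1 for nocodazole against alpha factor before salt and 1 for the difference in their salt responses, against 10.5% and 5.4%. Its counts for heat were 2 each in alpha factor and in nocodazole cells, against 20.3% and 36.5%. Fitting only the compared libraries gave 2 for salt in alpha factor without added cells, 0 after 3.5 h of nocodazole and 2 for nocodazole against alpha factor before salt. For salt in alpha factor without added cells, leaving out the libraries of that dose in both states gave 2 for 0.5N and 0 for 0.7N. Leaving out the 33c libraries gave 2 for heat in nocodazole cells, and leaving out both T0 replicate 1 heat libraries, which like the block with S. pombe sizes was chosen after seeing the data, gave 0 for heat in alpha factor cells. Where no value above shows it, the cause was not tested. Leaving out 1 library at a time gave 11 to 17 genes for salt in asynchronous cells, 0 to 1 in alpha factor cells, 1 to 2 for the difference, 1 for alpha factor before salt, 0 to 1 for salt in alpha factor without added cells, 1 to 5 in nocodazole, 0 to 11 after 3.5 h of nocodazole, 2 to 7 in cycloheximide 0.1, 0 for nocodazole against alpha factor before salt and for the differences between nocodazole and alpha factor in salt and heat response, 0 to 1 for heat in alpha factor, 1 to 2 for heat in nocodazole and 0 to 7 for the polysome ratio. In the heat series and the first salt series the replicate numbers did not pair the libraries consistently. The median correlation of deviations in the heat series was 0.28 for the same number and -0.20 for different numbers. In the first salt series it was 0.05 and -0.04. Since deviations were taken from group means, values for the same and for different numbers are tied to each other and are not separate evidence. The block there is therefore a fit to shared numbers only. In the heat series it added RPN4 in nocodazole cells (edgeR adjusted p = 0.0497) and RPN10 in alpha factor cells (edgeR adjusted p = 0.0433). Groups of 2 or 3 libraries limit what can be called: a miss shows no absence of change. The sign changes were as follows (log2). With S. pombe library sizes, PUP2 for salt in alpha factor cells was at 0.20, or 0.16 with the block, PRE7 for alpha factor before salt was at -0.039, or -0.065 with the block, and RPN4 for the alpha factor minus asynchronous difference was at -0.011 with the block. Without both T0 replicate 1 heat libraries RPN8 in alpha factor cells was at 0.043 and UMP1 in nocodazole cells at 0.75. Leaving out 1 library at a time, RPN4 ran from -0.066 to 0.18 for the alpha factor minus asynchronous difference, from -0.19 to 0.022 and from -0.19 to 0.52 for the nocodazole minus alpha factor difference in salt and in heat (-0.10 without the alpha factor 33c library), from -0.19 to 0.42 after 3.5 h of nocodazole and from -0.028 to 0.98 for the polysome ratio. UMP1 ran from -0.51 to 0.16, from -0.13 to 0.52 and from -0.45 to 1.67 for those 3 differences, from -0.48 to 0.075 for alpha factor before salt, from -0.18 to 0.47 for nocodazole against alpha factor before salt, from -0.040 to 0.72 in cycloheximide 0.1, from -1.17 to 0.75 for heat in nocodazole cells and from -0.28 to 0.75 for the polysome ratio. RPN8 ran from -0.78 to 0.045 for heat in alpha factor cells, and for the polysome ratio PRE7 ran from -0.062 to 1.33, RPT5 from -0.11 to 1.37 and RPN11 from -0.34 to 1.75.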
